A study of Mus musculus with 8 samples.

Results

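Kinesins are motor proteins that walk along microtubules or take them apart, using ATP. Mitotic kinesins build the spindle, move chromosomes and complete cell division, and their genes are commonly transcribed late in the cell cycle. Transport kinesins carry vesicles, organelles and other cargo at any stage of the cell cycle and are best known from nerve cells. The kinesin family was taken here as the protein-coding genes of the deposited count table whose symbol is Kif followed by a number, or Kifc followed by 1 digit, and 40 of the 35275 genes in the table met this rule. By known function, 13 were placed among mitotic kinesins, 15 among transport kinesins, 6 among ciliary and Hedgehog kinesins and 6 among other kinesins. The rule uses symbols and no measured value, but the family and the roles were picked with earlier results of these data known.

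The cells were a mouse epicardial line, derived from the cell layer that covers the heart. Messenger RNA was sequenced in 8 libraries, 4 from cells given a lentivirus with CRISPR/Cas9 and a guide against Hdac3 (KO) and 4 from cells given an empty-vector lentivirus (EV). The Hdac3 protein removes acetyl groups from histones as the enzyme of NCoR and SMRT corepressors. The comparison asks which transcripts differ between KO and EV cells, and the labels give no age, sex, dose or time for either group. They say neither whether the KO cells were 1 clone or a pool, nor whether each replicate came from its own culture. The p-values therefore measure only how far these libraries spread, which may be technical.

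Deposited counts summed to between 18063745 and 24564892 per library. Hdac3 itself stood at 63.2, 56.9, 63.9 and 62.6 CPM in KO replicates 1 to 4, against 60.3, 61.4, 64.0 and 61.7 CPM in EV replicates 1 to 4, so its transcript level does not check the labels. CPM are read counts scaled to a common library size by the trimmed mean of M-values (TMM). The title of KO replicate 1 says KO while another of its labels names the empty vector, and the calls and fold changes of the tested kinesins, their counts and medians by role, and the mitotic and transport sums were recomputed without this library. Of 17 epicardial and mesothelial markers, 16 could be tested. Of these, 7 were lower and 4 higher in KO, beside 13.4% lower and 12.6% higher of all genes tested. The list summed to 6572 to 6779.6 CPM in KO libraries and 6996 to 7407 CPM in EV libraries. The defining genes Wt1 (263 CPM in KO and 341 CPM in EV) and Upk3b (1465 CPM in KO and 1858 CPM in EV) were lower in KO. So were Tcf21, Podxl, Bnc2, Lrrn4 and Muc16 (−0.74, −0.95, −0.95, −0.30 and −1.17 on the log2 scale). Msln, Krt18, Krt8 and Krt19 were higher in KO (0.44, 0.54, 1.66 and 1.01). Tbx18 did not pass (16.9 CPM in KO and 16.1 CPM in EV), and Aldh1a2 was near 0 (0.251 CPM in KO and 0.407 CPM in EV).

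All 12 mitotic kinesins that could be tested fell in KO, to between 52.6% and 71.5% of the EV level. Kif2a, which acts on both spindles and axons, was placed among the other kinesins and did not pass the threshold (51.6 CPM in KO and 53.6 CPM in EV). That every tested mitotic kinesin fell therefore depends on this placing. Of the 13 transport kinesins tested, 4 fell and 0 rose. None of the 5 ciliary and Hedgehog kinesins tested passed the threshold, and 1 of the 4 other kinesins tested, Kif21b, rose. The median log2 fold change (KO over EV) was −0.72 over the mitotic and −0.03 over the transport kinesins, beside 0.005 over all 12801 genes tested. The transport median was the value of the rare gene Kifc2 (SE 0.313). The test was edgeR's quasi-likelihood test with Benjamini-Hochberg adjustment over these 12801 genes and a threshold of 0.05. Of all genes tested, 13.4% were lower in KO, 12.6% were higher and 26.0% passed in either direction. That is 1613 higher and 1711 lower; with library totals in place of TMM it was 1039 higher and 2414 lower, and the counts of mitotic and transport kinesins called were the same. In bulk RNA, fewer cells in division and less RNA of these genes per dividing cell cannot be told apart.

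**Figure D1:**
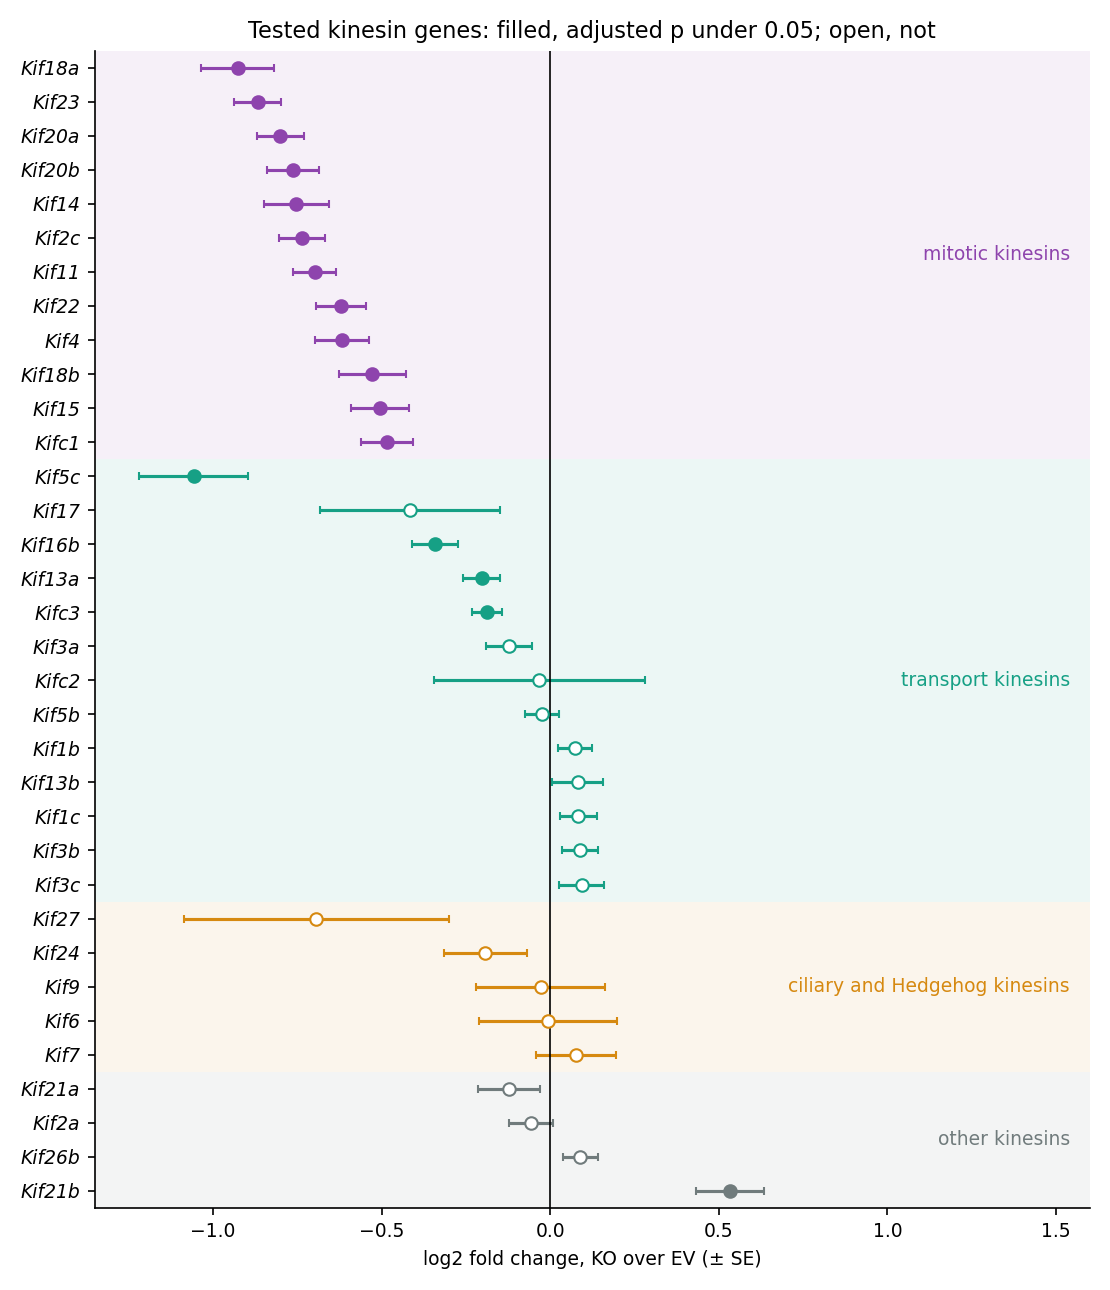
Log2 fold change (KO over EV) with its standard error on the x axis for the 34 tested kinesin genes, grouped by role, filled where the adjusted p was under 0.05. The mitotic kinesins lie between −0.93 and −0.48 and do not reach 0, while most transport kinesins sit near 0 apart from Kif5c at −1.06.

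Taking all kinesins in one library together shows the same split. The counts of the mitotic kinesins summed to 234, 244, 219 and 246 CPM in KO replicates 1 to 4, against 359.9, 386, 393 and 395 CPM in EV replicates 1 to 4. Every KO library lay well below every EV library, and KO replicate 1 lay among the other KO libraries. The sums were 236 ± 12.3 CPM in KO and 383 ± 16.002 CPM in EV (SD, n = 4 each), a ratio of 0.615. The transport kinesins summed to 999.5 ± 35.4 CPM in KO and 1010.2 ± 13.1 CPM in EV (SD, n = 4 each), a ratio of 0.989, and these sums overlapped. The difference between the median log2 fold changes of the mitotic and the transport kinesins was −0.68.

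**Figure D2:**
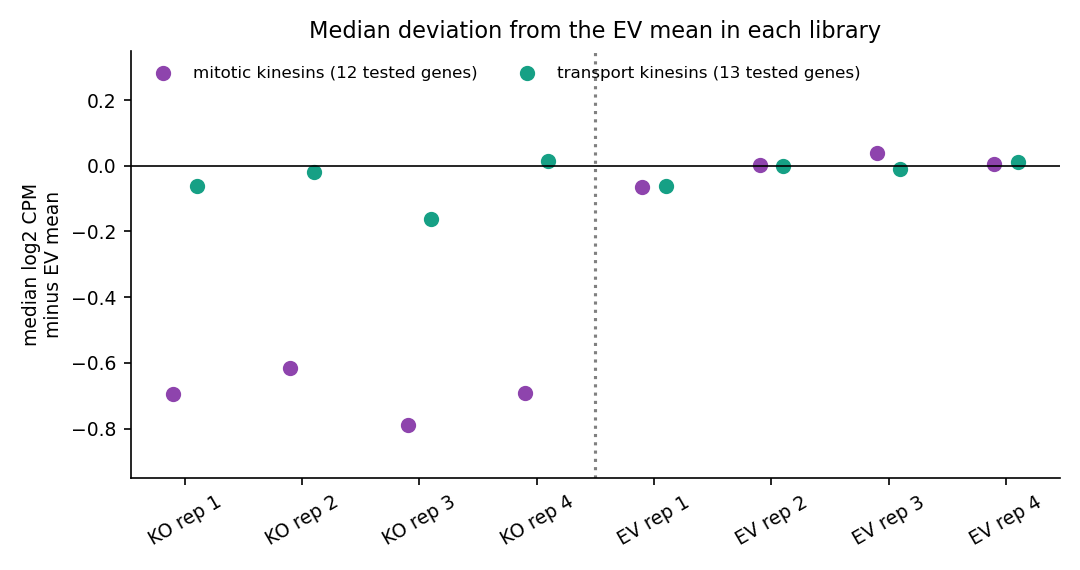
Median over the tested genes of each role of log2 CPM minus the gene's mean over EV libraries (y axis), for each library on the x axis. The mitotic kinesins lie between −0.79 and −0.62 in the KO libraries and between −0.06 and 0.04 in the EV libraries, while the transport kinesins lie between −0.16 and 0.01 in the KO libraries.

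The motors of the early spindle fell. Kif11, the bipolar kinesin that pushes the spindle poles apart, stood at 42.5, 47.6, 42.4 and 45.9 CPM in KO replicates 1 to 4, against 63.2, 74.6, 75.1 and 76.2 CPM in EV replicates 1 to 4. The lowest EV library was still above the highest KO library (log2 fold change −0.70, SE 0.0642, adjusted p = 1.22e-07). Kif15, a second motor that helps to keep the spindle bipolar, stood at 12.9, 14.4, 13.7 and 14.9 CPM in KO replicates 1 to 4, against 18.2, 18.9, 19.8 and 22.5 CPM in EV replicates 1 to 4 (log2 fold change −0.51, SE 0.0859, adjusted p = 0.000203). The groups did not overlap. Kifc1, a minus-end motor that gathers microtubules at the spindle poles, fell to 71.5% of the EV level. It stood at 16.7, 15.6, 15.2 and 17.001 CPM in KO replicates 1 to 4, against 23.2, 24.2, 22.2 and 20.7 CPM in EV replicates 1 to 4, with no overlap (log2 fold change −0.48, SE 0.0774, adjusted p = 0.000107). Kifc1 has a near-identical mouse copy, Kifc5b, whose symbol does not meet the name rule. Reads of the pair may have been shared between them, so each level is uncertain. Kifc5b stood at 4.94, 6.32, 4.10 and 5.45 CPM in KO replicates 1 to 4, against 7.78, 8.96, 9.54 and 8.68 CPM in EV replicates 1 to 4 and fell too (log2 fold change −0.75, SE 0.131, adjusted p = 0.000261).

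The kinesins that act on chromosomes and microtubule ends also fell. Kif2c, which takes microtubules apart at centromeres and so corrects faulty attachments, stood at 17.7, 16.6, 16.8 and 16.5 CPM in KO replicates 1 to 4, against 26.5, 29.1, 28.7 and 28.1 CPM in EV replicates 1 to 4 (log2 fold change −0.74, SE 0.0685, adjusted p = 1.41e-07). The KO libraries varied little, with an SD of 0.522 CPM around a mean of 16.9 CPM. Kif18a, which damps the swinging of chromosomes at the metaphase plate, fell to 52.6% of the EV level. The gene spans chromosome 2 from 109280738 to 109341747 (mm10), and it stood at 5.47, 5.68, 5.86 and 6.98 CPM in KO replicates 1 to 4, against 11.6, 11.4, 12.2 and 10.6 CPM in EV replicates 1 to 4 (log2 fold change −0.93, SE 0.108, adjusted p = 2.88e-06). This was the lowest fitted value among the mitotic kinesins, within the standard errors of Kif23, and with limma on log2(FPKM + 1) it was −0.55, where Kif23 had −0.83. Its relative Kif18b, which sets the length of astral microtubules, fell to 69.4%. Kif18b stood at 11.9, 11.4, 9.36 and 13.1 CPM in KO replicates 1 to 4, against 16.8, 16.5, 17.03 and 15.6 CPM in EV replicates 1 to 4 (log2 fold change −0.53, SE 0.0984, adjusted p = 0.000517), and the KO libraries spread more widely than the EV libraries without reaching them. The pair of chromosome-arm motors fell by similar factors. Kif22 stood at 19.5, 19.004, 16.7 and 17.5 CPM in KO replicates 1 to 4, against 25.5, 28.3, 29.5 and 28.04 CPM in EV replicates 1 to 4 (log2 fold change −0.62, SE 0.0749, adjusted p = 4.32e-06). Kif4 stood at 19.2, 17.9, 19.3 and 22.3 CPM in KO replicates 1 to 4, against 27.9, 29.1, 29.99 and 33.8 CPM in EV replicates 1 to 4 (log2 fold change −0.62, SE 0.0809, adjusted p = 1.19e-05). Neither overlapped between groups. Kif2b, the third of the Kif2 depolymerases, had 0 counts in all 8 libraries, where a count of 3 would be between 0.125 and 0.164 CPM.

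Kinesins of the central spindle and of cytokinesis, the final separation of the daughter cells, were among the larger falls. Kif23, which with Racgap1 forms the centralspindlin complex, had the smallest adjusted p of all members. The gene spans chromosome 9 from 61917280 to 61946799 (mm10). It stood at 21.9, 24.2, 20.4 and 24.7 CPM in KO replicates 1 to 4, against 41.8, 40.4, 41.6 and 42.8 CPM in EV replicates 1 to 4 (log2 fold change −0.87, SE 0.0682, adjusted p = 1.72e-08). Kif20a, which carries the chromosomal passenger complex to the central spindle, stood at 32.7, 32.6, 26.2 and 32.3 CPM in KO replicates 1 to 4, against 52.1, 53.8, 56.9 and 52.4 CPM in EV replicates 1 to 4 (log2 fold change −0.80, SE 0.0697, adjusted p = 5.79e-08). KO replicate 3 was the lowest library for this gene, and the groups did not overlap. Kif20b, a motor of late cytokinesis, stood at 23.6, 26.4, 23.2 and 23.8 CPM in KO replicates 1 to 4, against 35.5, 43.2, 39.6 and 45.9 CPM in EV replicates 1 to 4 (log2 fold change −0.76, SE 0.0772, adjusted p = 4.39e-07). Kif14, which binds citron kinase and Prc1 at the midbody, stood at 10.03, 12.5, 9.61 and 10.7 CPM in KO replicates 1 to 4, against 17.5, 16.7, 19.9 and 17.9 CPM in EV replicates 1 to 4 (log2 fold change −0.75, SE 0.0964, adjusted p = 9.20e-06). With limma on log2(FPKM + 1) the value of Kif14 was −0.49. All KO libraries of both genes lay below all EV libraries. The mitotic kinesin Cenpe, which moves chromosomes to the metaphase plate and lies outside the name rule, also fell. It stood at 23.03, 27.9, 21.9 and 22.9 CPM in KO replicates 1 to 4, against 33.9, 39.9, 40.5 and 49.8 CPM in EV replicates 1 to 4 (log2 fold change −0.78, SE 0.0981, adjusted p = 7.09e-06).

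**Figure D3:**
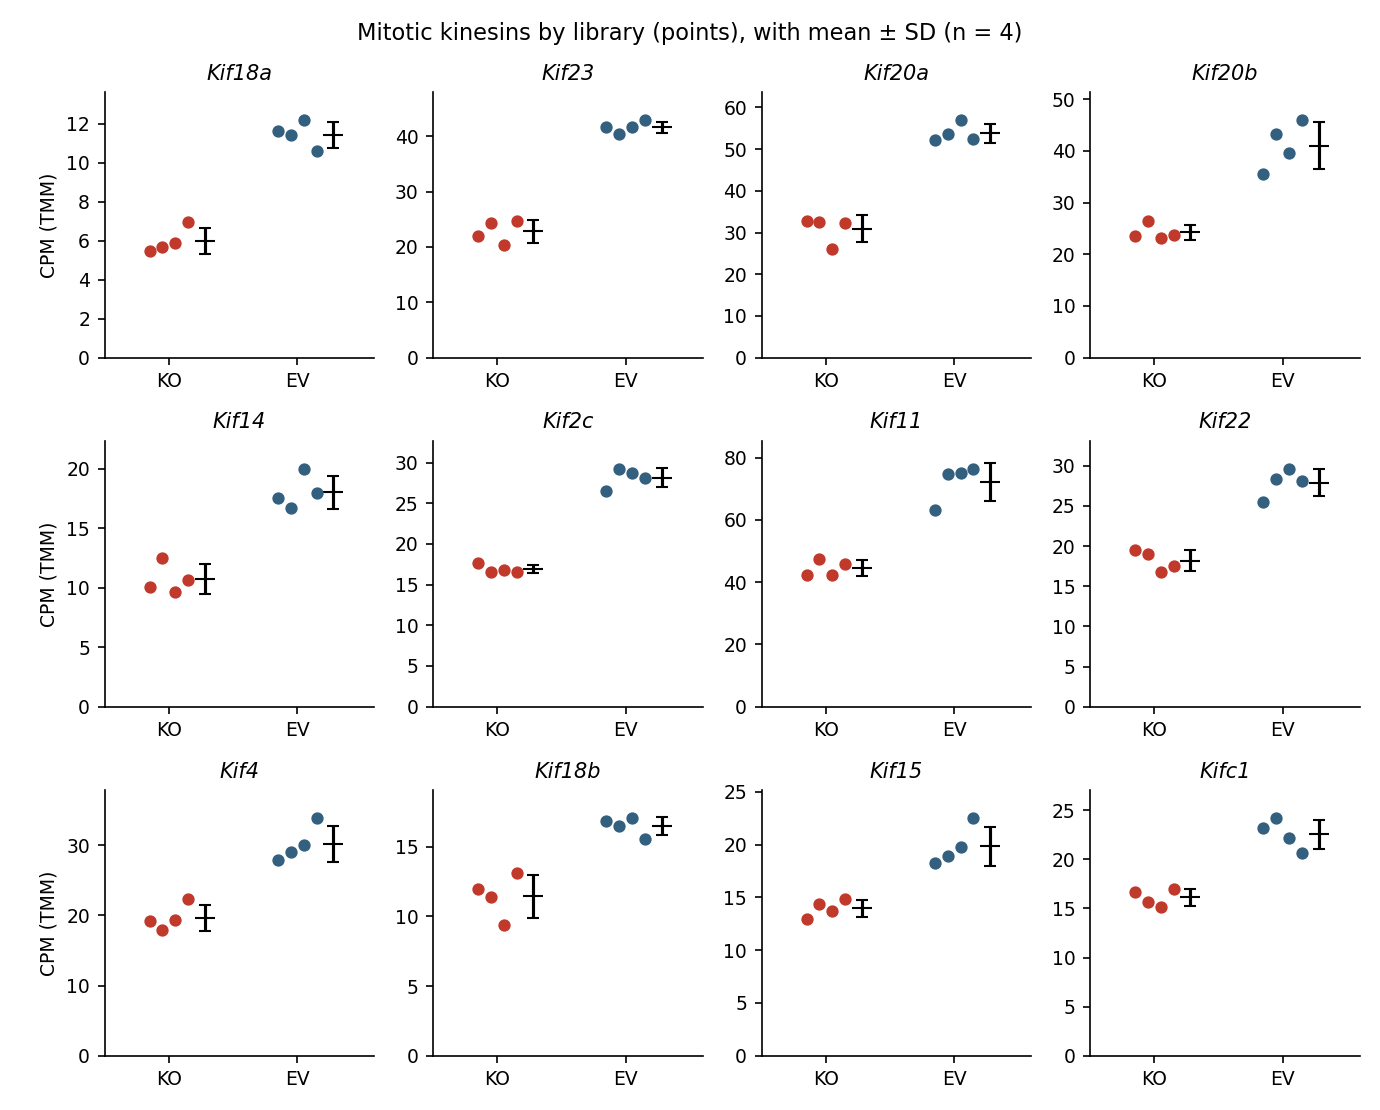
TMM-scaled CPM (y axis, from 0) of each tested mitotic kinesin in the KO and EV libraries (x axis), 1 point a library, with mean and SD over 4 libraries beside the points. In each of the 12 panels every KO library lies below every EV library, and panels are ordered by log2 fold change, from −0.93 for Kif18a to −0.48 for Kifc1.

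In all, 16 of the 34 members tested had every KO library below every EV library and 2 had every KO library above, shares to be read beside 13.9% and 12.6% of all genes tested. The 16 were the 12 mitotic kinesins and the 4 transport kinesins that passed the test. The 2 above were Kif21b, which passed, and Kif3c, which did not. The filter on low counts removed 6 of the 40: Kif5a with 35 counts over the KO and 20 over the EV libraries, Kif19a with 1 count in a KO library and 0 in EV, and Kif1a, Kif2b, Kif12 and Kif26a with 0 counts in every library.

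The position of the mitotic kinesins within the family changed with these falls. Levels of different genes are compared as FPKM, which divide counts by gene length and library total. Kif20a had 8.51 ± 0.889 FPKM in KO and 15.3 ± 0.601 FPKM in EV (SD, n = 4 each), which put it at rank 11 of the family in KO and rank 5 in EV. Kif23 had rank 15 in KO, at 6.54 ± 0.587 FPKM, and rank 9 in EV, at 12.4 ± 0.284 FPKM. Together the mitotic kinesins made up 23.3 ± 0.728% of the summed FPKM of the family in KO and 32.5 ± 0.743% in EV. The share of the transport kinesins was 63.3 ± 0.947% in KO and 56.3 ± 0.734% in EV. Shares of a whole are tied to each other, and the transport kinesins' share was higher in KO although their summed CPM overlapped between the groups. Kifc3, Kif1c and Kif5b held the top 3 ranks in both groups, at 35.2 ± 1.04, 38.7 ± 2.40 and 35.6 ± 1.41 FPKM in KO and 41.5 ± 1.37, 37.8 ± 2.52 and 37.5 ± 2.83 FPKM in EV, but Kifc3 and Kif5b did not differ in KO beyond their spread, nor did Kif1c and Kif5b in EV.

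**Figure D4:**
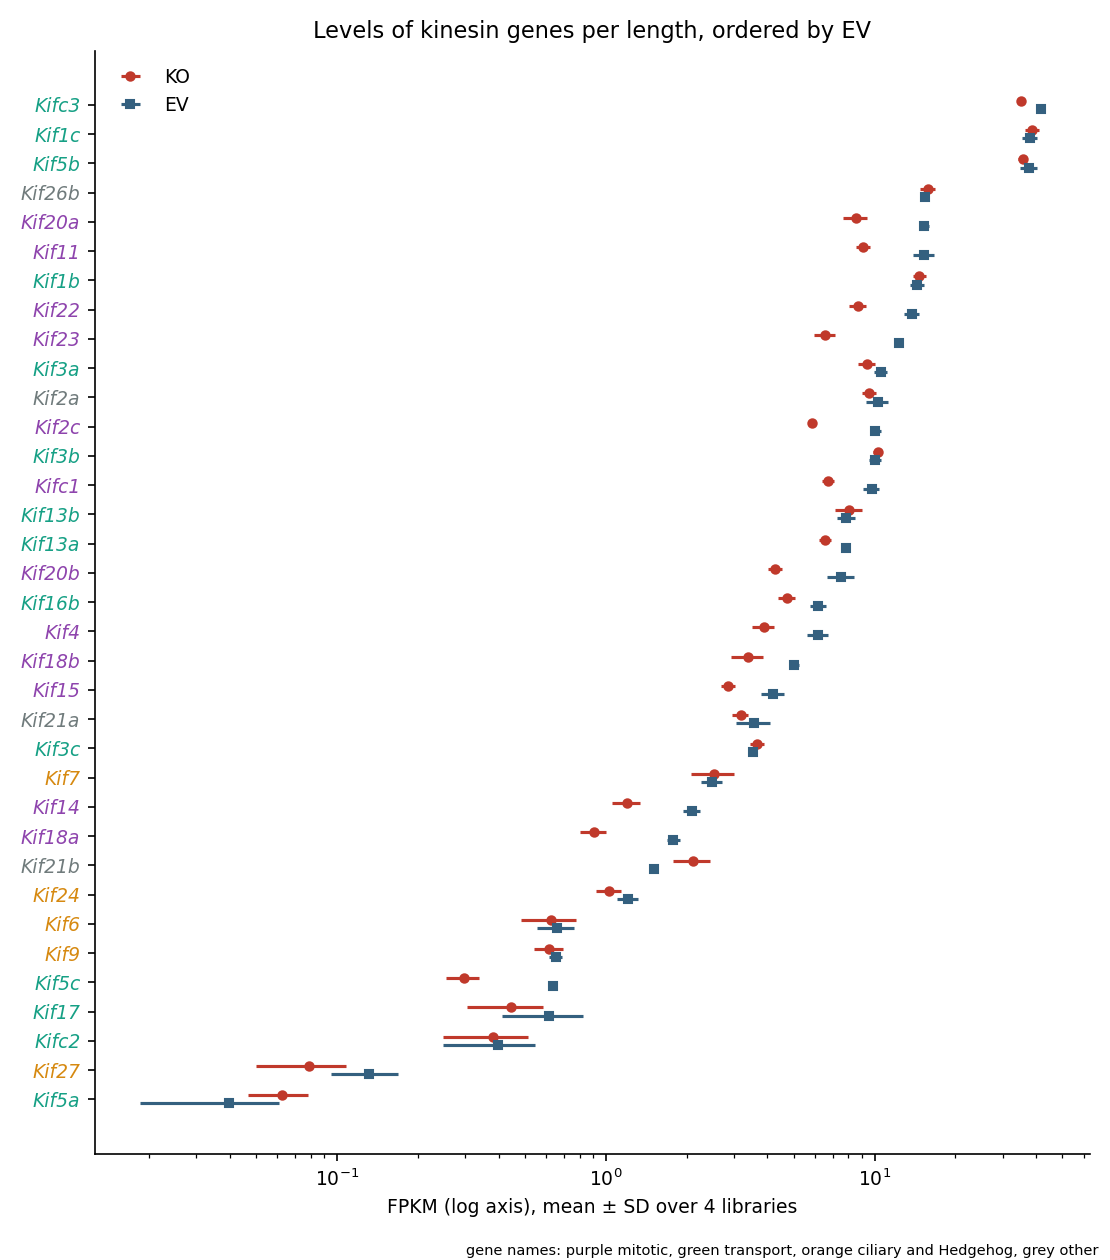
FPKM on a log axis (x axis), mean and SD over 4 libraries, in KO (circles) and EV (squares) for the kinesin genes with a mean of at least 0.03 FPKM in EV, ordered by the EV level, with gene names coloured by role. The mitotic kinesins are shifted to the left in KO, and most transport kinesins, Kif1c and Kif1b among them, have pairs of points that lie together.

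Promoters of the mitotic kinesins were examined because these genes moved together. Many genes expressed late in the cell cycle carry a CHR, an element close to the transcription start with the core TTTGAA or TTCGAA that the DREAM complex can bind, often near a CCAAT box, the site of NF-Y. The windows were RefSeq's 300 bases from 250 before to 50 after each annotated start (GRCm38.p6), and 32 of the 40 members had one. The core was searched on both strands, where TTCGAA reads the same on either strand, and the cores share at most 1 base with a CCAAT box. A core was found in 10 of 12 mitotic kinesins with a window, 1 of 10 transport kinesins, and 21.7% of the 27025 genes in RefSeq's promoter table. The 12 mitotic kinesins with a window are not the 12 that fell: Kif20a is not among them, and Kif2b, which had 0 counts, is. A CCAAT was found in 8 of the 12 mitotic kinesins, 3 of the 10 transport kinesins and 41.1% of all genes, and both motifs in 7, 0 and 8.61%. Of the mitotic kinesin partners, non-kinesin proteins of the spindle and midbody, 14 of 17 with a window held a core and 11 held both. Within 25 bases of the start on either side, a distance chosen after the positions were seen, 8 of the 12 mitotic kinesins, 0 of the 10 transport kinesins and 3.33% of all genes held a core. With TTTGAA alone the shares were again 10 of 12 and 1 of 10, beside 20.2% of all genes. Of the ciliary and Hedgehog kinesins 2 of 5 with a window held a core, and of the other kinesins 1 of 5. Kif26b held a TTTGAA 9 bases and a CCAAT 73 bases before the start. Kif24 held a TTCGAA 26 bases before the start, just outside the distance chosen. Neither Kif26b nor Kif24 passed the threshold, so a core near the start was not particular to kinesins that fell.

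The windows of the 8 mitotic kinesins with a core near the start are shown from 100 bases before to 50 bases after it. They read 5′ to 3′ on the strand of the gene. Capitals mark the core (TTTGAA, or TTCAAA where it lies on the other strand) and the CCAAT (or ATTGG).
Kif23, chr9:61946750-61946899 (minus strand): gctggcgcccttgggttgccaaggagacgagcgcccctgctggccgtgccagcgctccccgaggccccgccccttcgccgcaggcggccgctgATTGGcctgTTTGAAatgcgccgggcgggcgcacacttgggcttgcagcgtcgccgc
Kif18b, chr11:102925075-102925224 (minus strand): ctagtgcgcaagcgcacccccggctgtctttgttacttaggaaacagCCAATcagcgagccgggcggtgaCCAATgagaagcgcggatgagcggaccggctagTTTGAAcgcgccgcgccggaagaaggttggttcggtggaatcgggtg
Kif4, chrX:100625965-100626114 (plus strand): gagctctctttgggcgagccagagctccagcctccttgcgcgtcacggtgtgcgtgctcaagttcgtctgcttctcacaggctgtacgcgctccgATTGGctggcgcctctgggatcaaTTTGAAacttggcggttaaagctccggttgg
Kifc1, chr17:33890584-33890733 (minus strand): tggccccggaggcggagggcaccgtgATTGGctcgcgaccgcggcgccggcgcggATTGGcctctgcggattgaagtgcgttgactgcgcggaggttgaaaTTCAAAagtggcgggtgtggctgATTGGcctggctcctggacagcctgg
Kif11, chr19:37376282-37376431 (plus strand): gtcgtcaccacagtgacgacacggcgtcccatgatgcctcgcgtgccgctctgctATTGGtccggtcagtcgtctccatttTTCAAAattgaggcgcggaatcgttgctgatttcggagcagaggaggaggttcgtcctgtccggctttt
Kif22, chr7:127042371-127042520 (minus strand): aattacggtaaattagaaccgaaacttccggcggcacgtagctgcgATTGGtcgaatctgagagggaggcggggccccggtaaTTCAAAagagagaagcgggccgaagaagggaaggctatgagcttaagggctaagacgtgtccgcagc
Kif15, chr9:122950981-122951130 (plus strand): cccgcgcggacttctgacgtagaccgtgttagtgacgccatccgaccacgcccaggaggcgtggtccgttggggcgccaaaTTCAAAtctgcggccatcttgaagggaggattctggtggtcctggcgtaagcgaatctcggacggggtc
Kif20b, chr19:34922258-34922407 (plus strand): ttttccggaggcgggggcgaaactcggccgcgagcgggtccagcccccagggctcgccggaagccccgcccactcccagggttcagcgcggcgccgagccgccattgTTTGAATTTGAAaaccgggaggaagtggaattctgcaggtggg
In Kif23 the ATTGG and the TTTGAA began 7 bases before and at base 3 after the start, and in Kif11 the ATTGG and the TTCAAA began 45 and 19 bases before it. Kif22 had the same order, at 54 and 17 bases before the start. Kif15 and Kif20b held a core near the start but no CCAAT in the window. Kif2c and Kif14 held a core farther out, at 103 and 228 bases before the RefSeq start used, which for both lies inside the gene span of the deposited table. The starts used for Kif4 and Kifc1, whose cores were near the start, also lie inside their gene spans.

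For comparison, windows without a core are shown for the mitotic Kif18a and the transport kinesin Kif16b.
Kif18a, chr2:109280638-109280787 (plus strand): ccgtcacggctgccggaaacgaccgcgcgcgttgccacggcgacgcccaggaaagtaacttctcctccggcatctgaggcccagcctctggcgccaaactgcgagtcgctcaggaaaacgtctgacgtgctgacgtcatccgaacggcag
Kif16b, chr2:142901415-142901564 (minus strand): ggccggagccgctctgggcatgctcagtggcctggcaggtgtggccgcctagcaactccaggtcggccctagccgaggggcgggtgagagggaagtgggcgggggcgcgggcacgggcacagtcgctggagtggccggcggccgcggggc
Neither window held a core or a CCAAT in its whole 300 bases, and both genes fell. A match is a description of these letters and shows no binding.

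**Figure D5:**
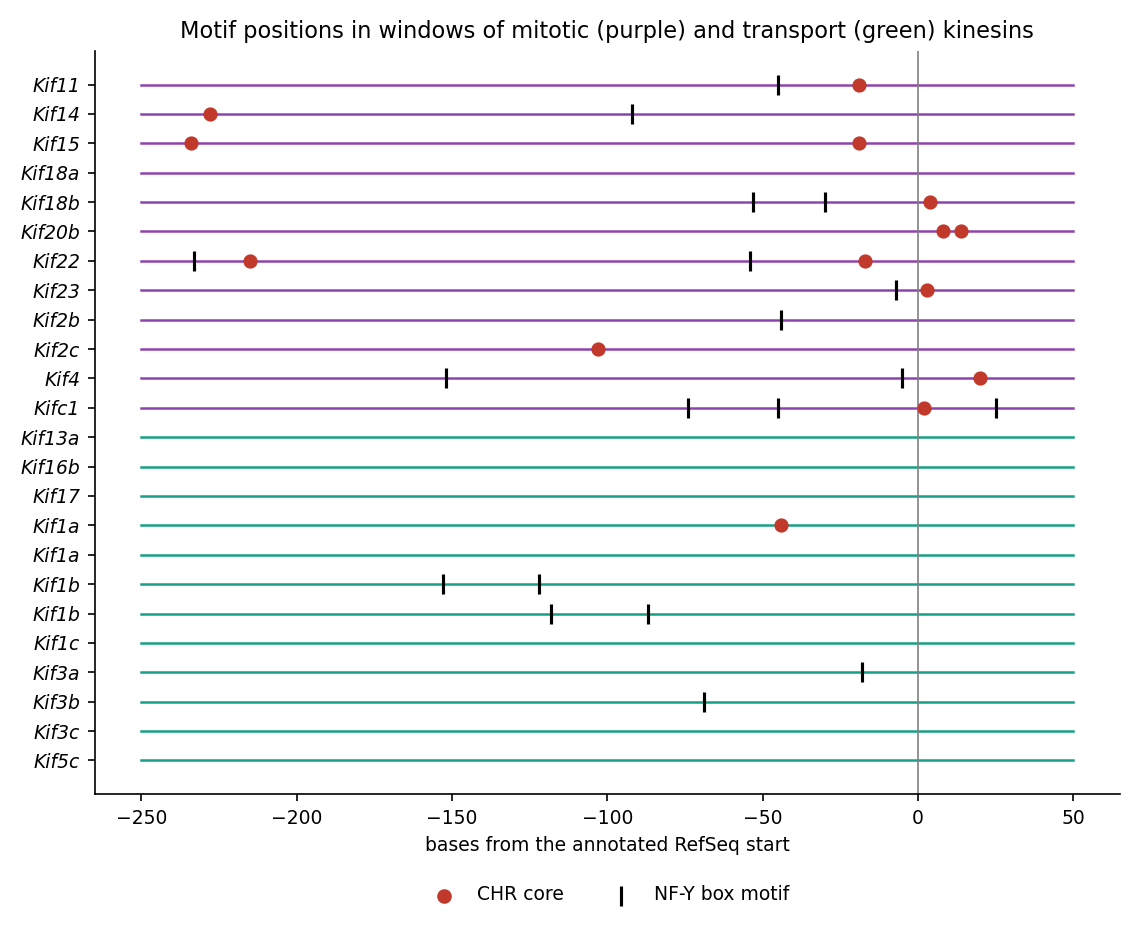
Positions of the CHR core (red circles) and the NF-Y box motif (black bars) in RefSeq windows from 250 bases before to 50 bases after the start (x axis), 1 line a window, with mitotic kinesins in purple and transport kinesins in green. Cores cluster near the start in 8 mitotic kinesins, and among transport kinesins 1 core lies in a window of Kif1a. Kif1a and Kif1b have 2 windows each because RefSeq gives 2 starts.

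Transcripts of the proteins that work with the mitotic kinesins fell as well. Of 20 mitotic kinesin partners tested, 20 fell, beside 13.4% of all genes tested, with a median log2 fold change of −0.62. Nusap1, which bundles spindle microtubules, fell by the largest amount of the list (−0.94, SE 0.0757), and Tpx2, which binds Kif15 and activates Aurora A, fell too (−0.64, SE 0.0529). So did the checkpoint kinase gene Bub1b (−0.67, SE 0.0559) and Hmmr, a microtubule-binding protein of the spindle (−0.93, SE 0.0811). For direct pairs, named after their values were seen, the fold changes stood side by side. Kif23 had −0.87 and its partner Racgap1 −0.52. Kif4 had −0.62 and Prc1, which it binds at the central spindle, −0.74. Kif14 had −0.75 and the citron kinase gene Cit −0.88. Kif20a had −0.80 and the passenger complex genes Aurkb and Incenp −0.64 and −0.42. In a list of regulators and markers of the cell cycle, chosen mainly for G2 and M phase, 12 of 16 fell and 1 rose, with a median of −0.57. Of all genes tested, 13.4% were lower and 12.6% higher in KO. The cyclins Ccnb2 (−0.79, SE 0.0636), Ccnb1 (−0.63, SE 0.0543) and Ccna2 (−0.69, SE 0.0617) and the transcription factor Foxm1 (−0.69, SE 0.0638) fell, and E2f1 (0.23, SE 0.0754) was the rise. The levels of these genes moved with those of the mitotic kinesins, and their part in the falls was not tested.

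Transport kinesins differed from one another. Kif5c, 1 of the 3 heavy chains of kinesin-1, the motor that carries mitochondria and other cargo outward, fell to 48.1% of the EV level. Located on chromosome 2 from 49619298 to 49774778 (mm10), it stood at 2.44, 1.86, 2.16 and 1.83 CPM in KO replicates 1 to 4, against 4.49, 4.24, 4.35 and 4.13 CPM in EV replicates 1 to 4 (log2 fold change −1.06, SE 0.161, adjusted p = 6.66e-05). This was the lowest fitted value of the family, within the standard errors of Kif18a, and with limma on log2(FPKM + 1) it was −0.34, nearer to 0 than that of every tested mitotic kinesin. The groups did not overlap, but the gene is rare: its FPKM were 0.297 ± 0.0410 in KO and 0.638 ± 0.0196 in EV (SD, n = 4 each). Kif5c made up 0.828 ± 0.141% of the summed FPKM of the 3 kinesin-1 heavy chains in KO and 1.68 ± 0.174% in EV. The main heavy chain of these cells was Kif5b, with 99.0 ± 0.123% of that sum in KO and 98.2 ± 0.232% in EV. Kif5b stood at 213, 227, 211 and 225 CPM in KO replicates 1 to 4, against 204, 225, 218 and 242 CPM in EV replicates 1 to 4, with overlapping groups (log2 fold change −0.02, SE 0.0509, adjusted p = 0.765). Kif5a was below the filter.

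Kif16b and Kif13a, motors that move endosomes, fell by less. Kif16b stood at 31.4, 27.4, 30.8 and 32.8 CPM in KO replicates 1 to 4, against 37.1, 39.5, 36.6 and 42.04 CPM in EV replicates 1 to 4 (log2 fold change −0.34, SE 0.0688, adjusted p = 0.00103). Kif13a stood at 45.2, 46.8, 43.1 and 48.1 CPM in KO replicates 1 to 4, against 53.3, 52.1, 51.3 and 54.3 CPM in EV replicates 1 to 4 (log2 fold change −0.20, SE 0.0545, adjusted p = 0.00949). Both had every KO library below every EV library. The call of Kif13a was lost without KO replicates 2 and 3 together (log2 fold change −0.17, adjusted p = 0.0962). Kifc3, a minus-end motor found at the Golgi and at cell junctions, fell to 87.8% of the EV level. It stood at 123, 125, 122 and 118 CPM in KO replicates 1 to 4, against 146, 139, 136 and 135 CPM in EV replicates 1 to 4 (log2 fold change −0.19, SE 0.0447, adjusted p = 0.00396).

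The other transport kinesins tested did not pass the threshold. The kinesin-2 subunits had log2 fold changes of −0.12 (SE 0.0678) for Kif3a, 0.09 (SE 0.0536) for Kif3b and 0.09 (SE 0.0665) for Kif3c. Kif3a is the shared partner that pairs with either Kif3b or Kif3c, and the pair with Kif3b builds cilia. Of the summed FPKM of the 3 genes, Kif3a held 40.2 ± 0.964% in KO and 43.8 ± 0.720% in EV, and Kif3b 44.1 ± 0.906% in KO and 41.5 ± 0.491% in EV, and these shares did not overlap between groups. Kif1b and Kif1c, motors of vesicles, had 0.07 (SE 0.0506) and 0.08 (SE 0.0537), and Kif13b had 0.08 (SE 0.0755). Kif17 (−0.42, SE 0.267) and Kifc2 (−0.03, SE 0.313) were rare, with at most 70 and 39 counts in a library, so their standard errors were the widest among the transport kinesins.

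Of 16 tested light chains and cargo adaptors of kinesins, 1 rose and 3 fell, with a median of −0.06. The shares called in this list and in the dynein, tubulin and intraflagellar lists are to be read beside the 12.6% higher and 13.4% lower of all genes tested. The scaffold gene Mapk8ip1 (−0.34, SE 0.0769) and Madd, an adaptor of Kif1b (−0.31, SE 0.0784), fell, as did Trak2, which links kinesin-1 to mitochondria (−0.14, SE 0.0505), while the scaffold gene Mapk8ip3 rose (0.24, SE 0.0625). Of 23 tested genes of cytoplasmic dynein and dynactin, the motor that runs toward the opposite end of the microtubule, 5 rose and 3 fell, with a median of 0.04. The dynein adaptor Bicd1 (−0.39, SE 0.0653) and the intermediate chain Dync1i1 (−0.53, SE 0.114) fell, and the dynactin subunit Dctn2 (0.22, SE 0.0516) and the light chain Dynll2 (0.28, SE 0.0695) rose. Of 11 tubulins, the subunits of the track itself, 3 rose and 2 fell, with a median of −0.02. Among these Tubb2b (0.54, SE 0.0560), Tubb2a (0.38, SE 0.0653) and the rare Tubb3 (0.99, SE 0.233) rose and Tubb4b (−0.26, SE 0.0456) fell.

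Kif21b, which limits the growth of microtubules and is best known from neurons and T cells, was the single tested kinesin that rose, to 145% of the EV level. Located on chromosome 1 from 136131389 to 136177998 (mm10), it stood at 17.7, 23.7, 16.9 and 21.3 CPM in KO replicates 1 to 4, against 13.2, 13.9, 14.3 and 13.5 CPM in EV replicates 1 to 4 (log2 fold change 0.53, SE 0.0996, adjusted p = 0.000521). The KO libraries spread more widely than the EV libraries, with an SD of 3.14 CPM in KO and 0.479 CPM in EV, and did not reach them. With limma on log2(FPKM + 1) the value was 0.30. Its relative Kif21a stood at 21.7, 21.6, 18.8 and 21.1 CPM in KO replicates 1 to 4, against 18.5, 23.8, 22.3 and 25.7 CPM in EV replicates 1 to 4, with overlapping groups (log2 fold change −0.12, SE 0.0906, adjusted p = 0.351). Of the summed FPKM of the pair, Kif21b made up 39.8 ± 3.05% in KO and 29.95 ± 2.74% in EV. Because Kif21b and Kif5c are abundant in neurons, a list of 10 neuronal markers was examined beside them: its genes summed to 6.77 to 8.03 CPM in KO libraries and 4.79 to 6.30 CPM in EV libraries, 5 of the 10 had a higher mean in KO, Tubb3 among them, and Snap25 and Stmn2 had 0 counts in all libraries. Kif2a, a depolymerase of both spindles and axons, had −0.06 (SE 0.0656), and Kif26b, an atypical kinesin linked to Wnt5a and Ror signalling, 0.09 (SE 0.0511).

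The ciliary and Hedgehog kinesins were at low levels and none passed the threshold. Kif7, which acts with Gli factors at the tip of the primary cilium, stood at 12.3, 14.6, 10.3 and 10.1 CPM in KO replicates 1 to 4, against 11.5, 11.7, 9.72 and 11.8 CPM in EV replicates 1 to 4 (log2 fold change 0.08, SE 0.118, adjusted p = 0.675). Kif24, which restrains the growth of cilia, stood at 6.63, 5.98, 5.73 and 5.11 CPM in KO replicates 1 to 4, against 5.86, 6.86, 7.22 and 6.69 CPM in EV replicates 1 to 4 (log2 fold change −0.19, SE 0.123, adjusted p = 0.272). Both overlapped between groups. Kif27, Kif6 and Kif9 had log2 fold changes of −0.69 (SE 0.392), −0.01 (SE 0.205) and −0.03 (SE 0.191), from at most 16, 72 and 54 counts in a library. Of 18 genes of intraflagellar transport, the movement of cargo trains within cilia in which kinesin-2 takes part, 1 rose and 4 fell, with a median of −0.05. Ift122 (−0.42, SE 0.0519), Ift80 (−0.26, SE 0.0502) and Ift81 (−0.39, SE 0.0929) fell and Ift27 (0.26, SE 0.0752) rose. Markers of multiciliated epithelium were near absent: 4 of the 9 in the table had 0 counts in every library, and the list summed to 1.75 to 2.33 CPM in KO libraries and 1.66 to 2.90 CPM in EV libraries.

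Markers of other cell types moved with the groups in part. The liver list summed to 22.5 to 45.2 CPM in KO libraries and 16.6 to 20.8 CPM in EV libraries. Of its 24 genes in the table, 21 were higher on average in KO, but 13 were below the filter. Of the 11 tested, 6 were higher in KO and 1 lower, Hp (−0.62 on the log2 scale). Of all genes tested, 12.6% were higher and 13.4% lower in KO. The highest liver sums were in KO replicates 2 and 3 (44.96 and 45.2 CPM). Without these 2 libraries 12 of 12 mitotic kinesins fell. The liver sums of KO replicates 1 and 4 (30.6 and 22.5 CPM) also lay above every EV library. Leaving out 2 libraries therefore did not remove the liver difference. The cardiomyocyte list summed to 112 to 129 CPM in KO libraries and 145 to 158 CPM in EV libraries, the endothelial list to 19.7 to 21.8 CPM in KO libraries and 26.8 to 29.9 CPM in EV libraries and the blood list to 9.73 to 11.02 CPM in KO libraries and 6.25 to 7.31 CPM in EV libraries. Single genes carried these sums. Tnnt2 had 115 CPM in KO and 145 CPM in EV and was the 1 cardiomyocyte gene of 4 tested that passed. Myh6, Actc1 and Myl7 had 1.21, 1.19 and −0.22 on the log2 scale without passing. Myh7 was below the filter (0.113 CPM in KO and 1.17 CPM in EV), and Nppa had 0 counts. In the endothelial list Kdr had 14.6 CPM in KO and 21.7 CPM in EV. Of the 3 endothelial genes tested, Kdr and Robo4 fell and Tek rose (0.42). In the blood list Cd68 had 7.89 CPM in KO and 4.74 CPM in EV and rose, 1 of 2 genes tested. Calls in these lists are to be read beside the same shares of all genes tested. The male germ line list summed to 0.196 to 0.790 CPM in KO libraries and 0.139 to 0.438 CPM in EV libraries, with Tnp1 and Prm2 at 0 counts. The part of these differences in the kinesin results was not tested.

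No source used here says whether strand was used in counting, and 15 members overlap another gene of the table. For 8 of them a gene on the opposite strand had at least 10 counts in all. Kif20a shares 2315 bases with Cdc23, which was lower in KO as well (log2 fold change −0.21), Kif4 shares 832 bases with Pdzd11 (−0.08, not past the threshold), and Kif18b lies wholly within the span of Gm26668, a lincRNA on the opposite strand that had 45 counts over all libraries. Kif7 shares 37 bases with Ticrr, which was lower in KO (−0.55). Kif18a and Kifc3 share 11 and 43 bases with a neighbour. The pseudogenes Kif4-ps and Kif22-ps had 0 counts in every library.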

How the data were processed

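The authors deposited raw counts per gene and a table of FPKM for the same 35275 genes. Per the submitters' processing notes, the build was mm10 and DESeq 1.6.3 was used, while aligner, counter, annotation and strand use were not given in the sources used here. Deposited FPKM equal counts divided by gene length and library total (100% of nonzero values within 1e-06) and carry no correction for composition.

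Libraries were grouped by title. Counts were tested with edgeR 4.0.16 (R 4.3.3): TMM scaling, filterByExpr (minimum count 10, minimum total 15), the two-sided quasi-likelihood F test and Benjamini-Hochberg adjustment over 12801 genes, threshold 0.05. The standard error is the log2 fold change divided by the square root of F. The test was tested on simulated counts. No replicate pair agreed within sampling noise (chi-square over degrees of freedom 4.14 to 13.9), so none was treated as the same library deposited again; this does not tell whether cultures were separate. Alternatives used DESeq2 1.42.0, limma 3.58.1 (voom, and log2(FPKM + 1) or log2(FPKM + 0.1)), other scalings, other filters, a replicate block and libraries left out.

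Members and lists were chosen with earlier results of these data known. By the rule for names, values were given for every tested mitotic kinesin, every other member past the threshold, and up to 4 genes a list. Markers of cell types were named outside this rule. Kif5b, Kif21a, Kif7, Kif24, E2f1 and the partner pairs were added after their values were seen. Lists were described, not tested. Promoter windows are RefSeq's (GRCm38.p6). No protein sequences were used here.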

Additional observations from a re-analysis of the deposited data

Results flagged for a closer look

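Of 72 groups of 4 libraries examined (34 tested kinesins and 2 sums, in KO and in EV), 7 had a library that stood apart from the other 3 by Dixon's test at 95%, which chance gives in about 1 in 20 groups. Among the mitotic kinesins these were Kif20a, at 26.2 CPM in KO replicate 3 while the other KO libraries held 32.3 to 32.7 CPM, and Kif11, at 63.2 CPM in EV replicate 1 while the other EV libraries held 74.6 to 76.2 CPM. Kif1c stood at 286 CPM in KO replicate 2, against 254 to 256 CPM in the others, and Kif3b at 56.0 CPM in KO replicate 4, against 59.7 to 60.4 CPM. Kif2a stood at 61.0 CPM in EV replicate 4, against 50.5 to 52.2 CPM in the other EV libraries. Kif7 at 9.72 CPM and Kif9 at 1.90 CPM were low in EV replicate 3, where the others held 11.5 to 11.8 CPM and 2.08 to 2.10 CPM.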

How the results depend on the processing

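Under 18 alternatives each, 12 of 12 tested mitotic kinesins fell every time, between 3 and 4 transport kinesins fell, and Kif21b rose every time. Of the 17 genes with a call, the single call lost was that of Kif13a without KO replicates 2 and 3. Over all genes, 1039 rose with library totals alone, 896 with log2(FPKM + 1), 897 with log2(FPKM + 0.1) and 766 without a filter on FPKM, and without KO replicates 2 and 3 880 rose and 1094 fell. Whether replicate numbers shared by the groups pair libraries was not settled. Deviations of same-numbered libraries correlated at 0.124, −0.034, 0.063 and 0.091. KO replicates 1, 3 and 4 each correlated best with the EV library of the same number, and KO replicate 2 with EV replicate 4. With the replicate block 1879 genes rose and 1858 fell, and 12 mitotic and 4 transport kinesins fell. The difference of medians between mitotic and transport kinesins (−0.68) was −0.47, −0.63 and −0.54 with log2(FPKM + 1), log2(FPKM + 0.1) and log2(FPKM + 1) without a filter. With 1 library left out it was −0.69 to −0.56. The −0.56 came without KO replicate 1, the library whose labels conflict, where 12 mitotic and 4 transport kinesins fell. The mitotic median was −0.58 with log2(FPKM + 1), with or without a filter, where a pseudocount understates changes of low genes. The transport median was −0.11 and −0.12 with log2(FPKM + 1) and log2(FPKM + 0.1), and −0.14 to −0.0056 with 1 library left out. The −0.14 came without KO replicate 1. In the main fit this median was the value of Kifc2, which ranged from −0.22 to 0.32 over the 16 alternatives that kept it. Why the median moved was not tested. Signs turned for 7 genes that had not passed. With 1 library left out, Kif6 ranged from −0.18 to 0.10, Kif7 from −0.042 to 0.15, Kif9 from −0.093 to 0.050, Kif2a from −0.094 to 0.011, Kif5b from −0.068 to 0.018 and Kifc2 from −0.22 to 0.21. Without KO replicates 2 and 3, Kif6 had 0.092, Kif7 −0.0012, Kif9 0.10, Kif13b −0.038 and Kifc2 0.32. Depth limits the rare Kif17, Kifc2, Kif27, Kif6 and Kif9.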
